A study of Mus musculus with 8 samples.

Results

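miR-26a, miR-26b, miR-101a and miR-101b, 4 microRNAs described as tumour-suppressive in liver and as regulators of the methyltransferase EZH2, were sought by assay name among the 381 small RNA assays of a mouse liver profile. Assays for 3 of the 4 were found, and miR-101b was not analysed here. The other three were determined on all 8 array cards and belonged to the 166 assays that entered the tests. Members were chosen by name and not by their values, although earlier results of these data were known.

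Whole liver RNA came from female C57B6 mice, 4 weeks old at the start, that were left untreated or received carbon tetrachloride (CCl4) for 1, 4 or 8 weeks. CCl4 is a hepatotoxin whose repeated injection in corn oil into the peritoneal cavity produces liver injury and fibrosis. Each group is represented by 2 cards. The labels give the dose as 1 mg/kg, whereas the study's methods give the same figure in ml/kg, and the labels call the injections biweekly. The untreated mice are labelled as having no treatment, so that the oil, the injections and CCl4 itself cannot be told apart, and age at collection cannot be told apart from the time on CCl4. The labels do not say whether the 2 cards of a group came from separate mice, and the numbers of mice in the series text differ from the number of cards except at 8 weeks. All p-values therefore measure the spread between these cards, which may be technical.

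Each card is a TaqMan low-density array on which 1 assay per well reads 1 mature miRNA after reverse transcription with a specific stem-loop primer. The reading is a threshold cycle (Ct), so that a lower Ct means more RNA and 1 cycle is close to 1 unit on the log2 scale. Between 193 and 235 assays were determined per card. The mean Ct of the 149 assays below Ct 35 on every card ran from 27.5 to 29.8, with 4-week replicate 2 the faintest card. Levels below are this card mean minus the Ct of the assay, in log2 units. The liver-specific miR-122 was determined on all 8 cards with a mean Ct of 22.8, so the defining marker of the labelled tissue was present.

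miRNAs silence messenger RNAs that pair with their seed, the stretch of bases near the 5′ end. EZH2 is the catalytic subunit of Polycomb repressive complex 2, which methylates histone H3 and keeps target genes silent, and its messenger RNA has been described as a target of both miR-26a and miR-101. Lower miR-26 and miR-101 have been described in hepatocellular carcinoma, a tumour that commonly arises in fibrotic liver. Neither EZH2 RNA nor protein was measured on these cards.

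The mature sequences are shown because they define what each assay can tell apart. They are printed 5′ to 3′ as given by RefSeq with GRCm38.p6, and the seed, bases 2 to 8, is in capitals.

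miR-26a: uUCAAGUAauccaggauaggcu

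miR-26b: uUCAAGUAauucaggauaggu

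miR-101a: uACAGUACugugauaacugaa

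miR-26a and miR-26b have the same seed, which no other of the 1679 mature mouse sequences in that table carries. Over the 21 bases that both share in length they are identical at 19, and counted from 1 at the 5′ end of miR-26a the differences are C11U and C21U. The seed of miR-101a was carried by no other mature sequence of the table. The 19-base miR-101c is contained whole in miR-101a, and whether the assay also reads it was not tested. miR-26a is encoded at 2 loci, chr9:119031811-119031832 within the span of Ctdspl and chr10:126995543-126995564 within that of Ctdsp2, both on the plus strand. Since both loci give 1 mature sequence, the assay reads their sum. miR-26b lies on the plus strand at chr1:74394324-74394344 within the span of Ctdsp1, so that all 3 miR-26 loci sit in genes for small C-terminal domain phosphatases. miR-101a lies on the minus strand at chr4:101346957-101346977 within the span of the non-coding gene E130102H24Rik. The cards hold no measurement of these host genes. No genome build is named with the Ct values, and the coordinates are those of RefSeq.

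Both miR-26 assays were lower in CCl4-treated liver at 1 and 4 weeks, at between 0.416 and 0.497 of the untreated level. At 8 weeks they stood at 0.733 and 0.672 of it, and neither passed the test. The group means of miR-101a ran otherwise: it stood at 0.675 at 1 week without passing the test, fell to 0.218 at 4 weeks, and at 8 weeks its 2 cards disagreed. Its ratio to miR-26a on the same card did not pass against untreated at 1, 4 or 8 weeks. An F test of that ratio over the times passed, as for 69.7% of the 165 assays set against miR-26a, but not in every fit that left out a card. Because the tissue is bulk liver, fewer cells of a type and less RNA per cell cannot be told apart.

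miR-26a was the brightest of the assays, with a mean Ct of 24.4 that placed it 15th of the 166 tested, and it had the smallest replicate spread, a pooled SD of 0.046. Its level was 4.79 on 1 untreated card and 4.77 on the other. The 1-week cards read 3.78 and 3.67, the 4-week cards 3.73 and 3.80, and both 8-week cards 4.33. Every treated card lay below both untreated cards, and the 1-week and 4-week cards overlapped each other and lay below both 8-week cards. In linear terms, with the untreated level set to 1, miR-26a was at 0.481 ± 0.025 at 1 week, 0.497 ± 0.017 at 4 weeks and 0.733 ± 0.0018 at 8 weeks (SD, n = 2 cards each).

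Against untreated, limma gave miR-26a a log2 change of -1.06 (SE 0.26, adjusted p = 0.0190) at 1 week. The change was -1.01 (adjusted p = 0.0213) at 4 weeks and -0.45 (adjusted p = 0.275) at 8 weeks with the same SE, and the 8-week difference was 0.013 with the opposite sign when cards were scaled to the endogenous control RNAs. The SE is much wider than the spread of the miR-26a cards themselves because limma shares the spread over all 166 assays.

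miR-26b, its seed partner, was read about 1 cycle later, at a mean Ct of 25.6 and rank 25, with a pooled SD of 0.21. Untreated liver read 3.70 and 3.63. The CCl4 cards read 2.49 and 2.64 (1 week), 2.62 and 2.13 (4 weeks), and 3.23 and 2.93 (8 weeks). The 6 treated cards again lay below both untreated cards, and the lowest was 4-week replicate 2, the faintest card. Relative to untreated, miR-26b was at 0.466 ± 0.035 at 1 week, 0.416 ± 0.099 at 4 weeks and 0.672 ± 0.100 at 8 weeks (SD, n = 2). The limma changes were -1.10 (SE 0.30, adjusted p = 0.0271), -1.28 (adjusted p = 0.0142) and -0.58 (adjusted p = 0.245). The 8-week change was -0.12 with the control RNAs, -0.37 with quantile normalization and -0.65 with all determined assays as centre, and none passed.

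miR-101a was the dimmest, at a mean Ct of 28.7 and rank 71, and the most variable, with a pooled SD of 0.60. The untreated cards read 0.82 and 1.04 and the 1-week cards 0.38 and 0.35. The 4-week cards read -0.97 and -1.65, and the 8-week cards 0.12 and -1.42. All treated cards lay below both untreated cards, but the 8-week pair spanned most of the distance between the 1-week and the 4-week cards. Relative to untreated, it was at 0.675 ± 0.0093 at 1 week, 0.218 ± 0.071 at 4 weeks and 0.384 ± 0.266 at 8 weeks (SD, n = 2), with single 8-week cards at 0.572 and 0.196. In each of these 2 groups the lower value came from replicate 2, the card with the higher mean Ct of its pair (29.8 at 4 weeks and 28.9 at 8 weeks); the part of card brightness in this difference was not tested.

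**Figure D1:**
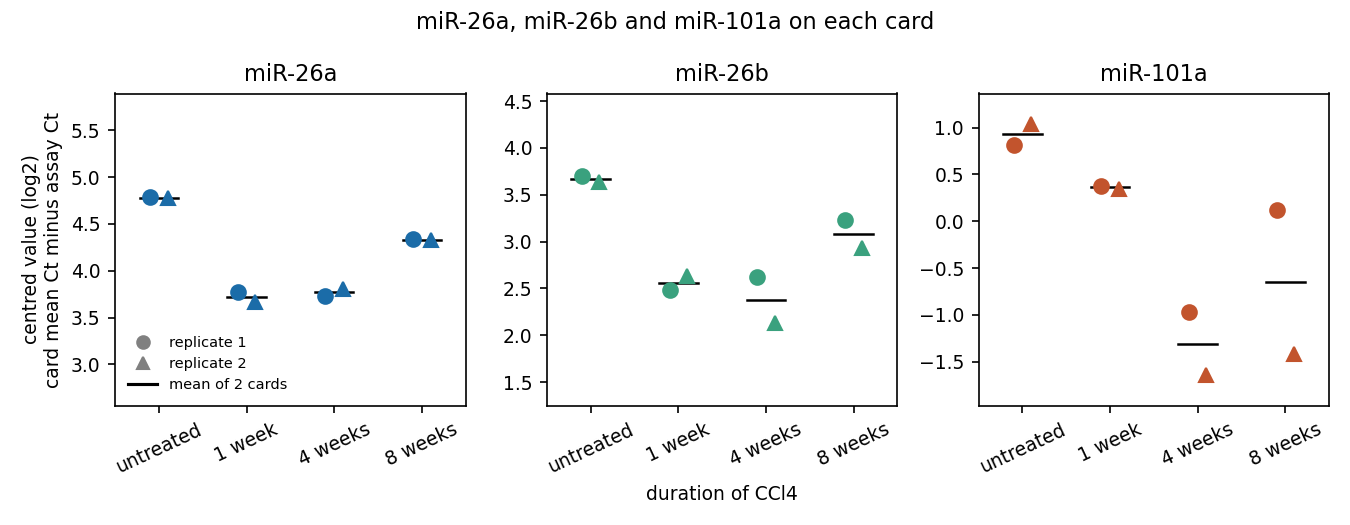
Level of miR-26a, miR-26b and miR-101a on each of the 8 cards, in log2 units as the card mean Ct minus the assay Ct, with points for cards and bars for group means. The miR-26 cards are lowest at 1 and 4 weeks, and the miR-101a cards at 8 weeks lie far apart, at 0.12 and -1.42.

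The limma change of miR-101a was -0.57 (SE 0.51, adjusted p = 0.384) at 1 week, -2.23 (adjusted p = 0.0142) at 4 weeks and -1.58 (adjusted p = 0.126) at 8 weeks. The 1-week change was -0.30 with quantile normalization, -0.93 with all determined assays as centre and -1.08 with no normalization, and none passed. Without 8-week replicate 2 the 8-week difference was -0.81, and without 8-week replicate 1 it was -2.35. The 4-week call held under every other centring, filter and way of fitting all the cards compared that was tried. The limma adjusted p-values ran from 0.00655 to 0.0441 and the changes from -3.08 to -1.59. The call did not hold in every fit that left out a card.

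Thus 2 of the 3 assays were lower at 1 week by limma, where 14.5% of all tested assays were, and all 3 were lower at 4 weeks, where 16.9% were. At 8 weeks none of the 3 passed, and 0.602% of all assays were called lower. At that time 1 of the 3 (miR-101a) had an unadjusted p below 0.05, beside 24.1% of all assays. Among the 166 assays ordered from the lowest change upwards, miR-26a, miR-26b and miR-101a stood at 33, 30 and 59 at 1 week, at 39, 29 and 8 at 4 weeks, and at 52, 42 and 5 at 8 weeks. The median change over all assays was -0.09, 0.03 and -0.04 at the 3 times, and the central 50% of assays at 1 week lay between -0.85 and 0.88. The miR-26 changes at 1 week thus lay just outside the middle of a profile in which many miRNAs moved both ways, and miR-101a at 4 and 8 weeks lay near its lower end.

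The calls rest on few cards. Leaving out any 1 of the 4 cards compared removed the miR-26a and miR-26b calls at 1 week (adjusted p from 0.0658 to 0.134, changes from -1.18 to -1.004) and the miR-26a call at 4 weeks (0.0646 to 0.0872, changes from -1.05 to -0.97). The miR-26b and miR-101a calls at 4 weeks were lost without either untreated card or without 4-week replicate 2, at adjusted p-values from 0.0570 to 0.0809. With 4-week replicate 2 left out, miR-26b changed by -1.04 and miR-101a by -1.90. With the cards scaled to the control RNAs the 4-week changes of miR-26a and miR-26b were -0.37 and -0.64 and neither passed. Their 4-week calls were also lost with only the groups compared (adjusted p = 0.0740 and 0.0505), that of miR-26b with quantile normalization (-0.84) and that of miR-26a with all determined assays as centre (-1.29), and with no normalization both lost their calls at 1 and 4 weeks.

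**Figure D2:**
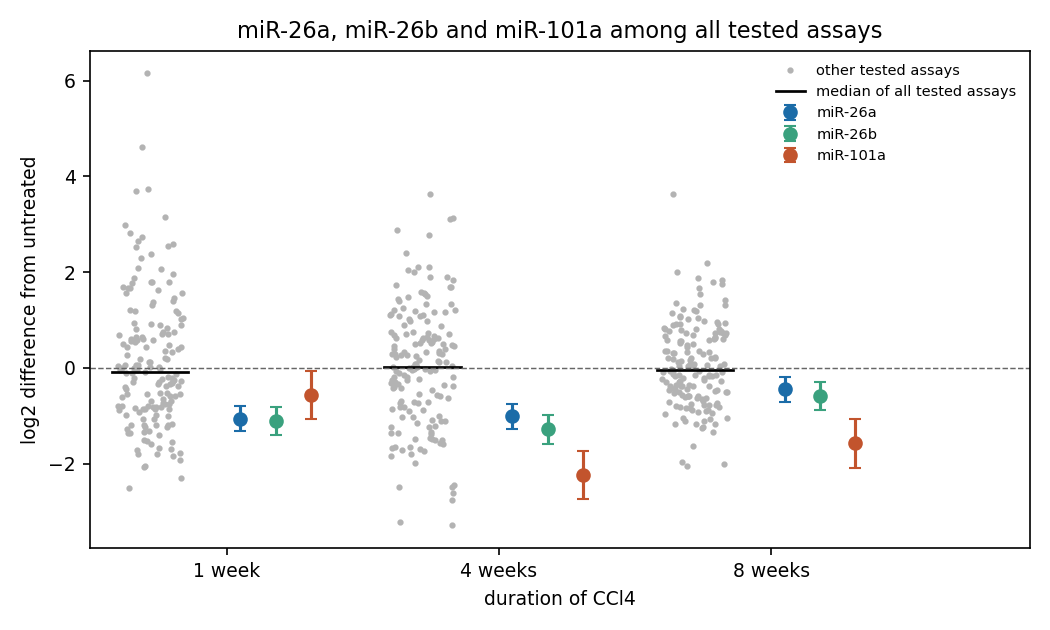
Log2 difference from untreated of each assay at 1, 4 and 8 weeks, with bars of 1 SE from limma on each side, beside grey points for the other tested assays and a line at the median of all 166. miR-101a at 4 weeks, at -2.23, is the largest of the 9 differences.

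Over all 6 treated cards, miR-26a averaged 0.84 below untreated, miR-26b 0.99 and miR-101a 1.46 on the log2 scale. In 6 of 6 treated cards each assay lay below both untreated cards, which was true of 16.3% of the tested assays. The highest treated and lowest untreated levels were 4.33 and 4.77 for miR-26a, 3.23 and 3.63 for miR-26b, and 0.38 and 0.82 for miR-101a. The exact two-sided permutation test gave p = 0.0714 for each, the smallest value that 28 ways of choosing 2 of 8 cards allow, so that this test could not pass 0.05 here. In limma the same contrast passed for all 3, with adjusted p-values of 0.0225, 0.0220 and 0.0348, and 16.3% of all assays were called lower in it. It was lost for all 3 without either 1-week card and without either untreated card, in the latter case with changes of -0.83 and -0.85 for miR-26a, -0.96 and -1.02 for miR-26b, and -1.57 and -1.35 for miR-101a. For miR-101a it was also lost without 4-week replicate 2 (-1.35, adjusted p = 0.0566) and with quantile normalization (-1.44, adjusted p = 0.0971). It was lost for all 3 with control RNAs (-0.55, -0.70 and -1.17, adjusted p = 0.195, 0.156 and 0.0853) and with no normalization, and for miR-26a and miR-26b with all determined assays as centre (adjusted p = 0.0739 and 0.0655). The F test over the times also passed for all 3 (adjusted p = 0.0306, 0.0309 and 0.0306), as it did for 54.2% of all assays. That call was lost for all 3 without either untreated card, either 1-week card or 4-week replicate 2, and for miR-26a also without 4-week replicate 1, at adjusted p-values from 0.0517 to 0.103. It was also lost for all 3 with no normalization, for miR-26b and miR-101a with control RNAs (adjusted p = 0.0519 and 0.103) and quantile normalization (0.0558 and 0.0582), for miR-26a and miR-26b with all determined assays as centre (0.0688 and 0.0653), and for miR-26a with a replicate block (0.0506).

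Between 1 and 4 weeks the miR-26 assays differed by 0.05 for miR-26a (adjusted p = 0.900) and -0.18 for miR-26b (adjusted p = 0.622) in limma. This depended on the scaling, since miR-26a was called higher at 4 weeks with control RNAs (0.93, adjusted p = 0.0468) and quantile normalization (0.75, adjusted p = 0.0274), and miR-26b was at 0.70 and 0.37. Over the same interval miR-101a fell by 1.67 (adjusted p = 0.0311), and 25.3% of all assays were called lower in this comparison. That call was lost without either 1-week card (adjusted p = 0.106 and 0.114), without 4-week replicate 2 (-1.33, adjusted p = 0.144) and without either untreated card (adjusted p = 0.0501). It was also lost with control RNAs (-0.79, adjusted p = 0.231), with all determined assays as centre (-1.58, adjusted p = 0.0591) and with no normalization (-2.0, adjusted p = 0.138).

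From 4 to 8 weeks the differences were 0.56 for miR-26a, 0.70 for miR-26b and 0.66 for miR-101a, and none passed in limma. In that comparison 1.2% of all assays were called, and 1 of the 3 (miR-26b) had an unadjusted p below 0.05, beside 16.3% of all assays. From 1 to 8 weeks they were 0.61, 0.52 and -1.01, and none passed although 24.1% of all assays were called in 1 direction or the other. An unadjusted p below 0.05 was found for 1 of the 3 (miR-26a) and for 42.2% of all assays. miR-26a was called higher at 8 than at 1 week with control RNAs (1.31, adjusted p = 0.0220) and quantile normalization (1.18, adjusted p = 0.0163), and miR-26b with control RNAs (1.22, adjusted p = 0.0442). Over that interval U6 itself changed by -3.49, snoRNA135 by 0.21 and snoRNA202 by 1.18 in limma. For miR-101a the difference from 1 to 8 weeks was -0.31 with control RNAs, -0.51 with no normalization and -1.21 with quantile normalization, and none passed. Without 8-week replicate 1, the miR-101a difference from 1 to 8 weeks was -1.78, and that from 4 to 8 weeks was -0.12. Without 8-week replicate 2 these differences were -0.24 and 1.43. In the order of group means, untreated was highest for each assay, and no 2 neighbouring groups differed by an adjusted p below 0.05 for any of the 3.

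A ratio of 2 assays on the same card does not depend on a centring that adds the same amount to every assay of the card. Quantile normalization does not do that, and the ratios were not tested under it. With it, miR-101a and miR-26a changed by -0.30 and -1.43 at 1 week. From 1 to 4 weeks they changed by -2.22 and 0.75. The log2 ratio of miR-26b to miR-26a, set to 0 in untreated liver, was -0.17 and 0.085 on the 1-week cards, 0.0050 and -0.56 on the 4-week cards, and 0.015 and -0.29 on the 8-week cards. The ratio thus stayed within a span of 0.64 over all 8 cards, and the farthest value was again 4-week replicate 2. A limma F test of this ratio did not pass (F = 0.28, adjusted p = 0.850). The 95% interval of its change was -0.80 to 0.71 for 1 week, -1.03 to 0.48 for 4 weeks and -0.89 to 0.62 for 8 weeks, so that unequal changes within these limits are not excluded.

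The ratio of miR-101a to miR-26a was 0.45 and 0.53 above untreated on the 1-week cards, 0.85 and 1.60 below it at 4 weeks, and 0.36 and 1.90 below it at 8 weeks, a span of 2.43. Both 1-week cards therefore lay above, and all 4 later cards below, both untreated cards. The F test over the times passed (F = 5.44, adjusted p = 0.0379), as it did for 69.7% of the 165 assays set against miR-26a. The mean change was 0.49 at 1 week, with a 95% interval from -0.69 to 1.67. At 4 weeks it was -1.23 (from -2.41 to -0.04), and at 8 weeks -1.13 (from -2.31 to 0.05). These intervals are not adjusted: the 4-week change was not called in limma (adjusted p = 0.0716), where 4.85% of the 165 assays were called lower, although it was called when either 8-week card was left out (adjusted p = 0.0234 for both). Between times the ratio fell by 1.72 from 1 to 4 weeks (adjusted p = 0.0278), where 25.5% of assays were called lower, and by 1.62 from 1 to 8 weeks (adjusted p = 0.0438), where 31.5% were. The first of these was lost without either 1-week card (adjusted p = 0.0866 and 0.104) or 4-week replicate 2 (-1.34), and the second without either untreated card (adjusted p = 0.0669), either 1-week card (0.119 and 0.133) or 8-week replicate 2 (-0.85). The F test's call was lost without either untreated card (F = 4.55 and 4.27), either 1-week card (3.68 and 3.48) or 4-week replicate 2 (4.18), at adjusted p-values from 0.0716 to 0.107.

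**Figure D3:**
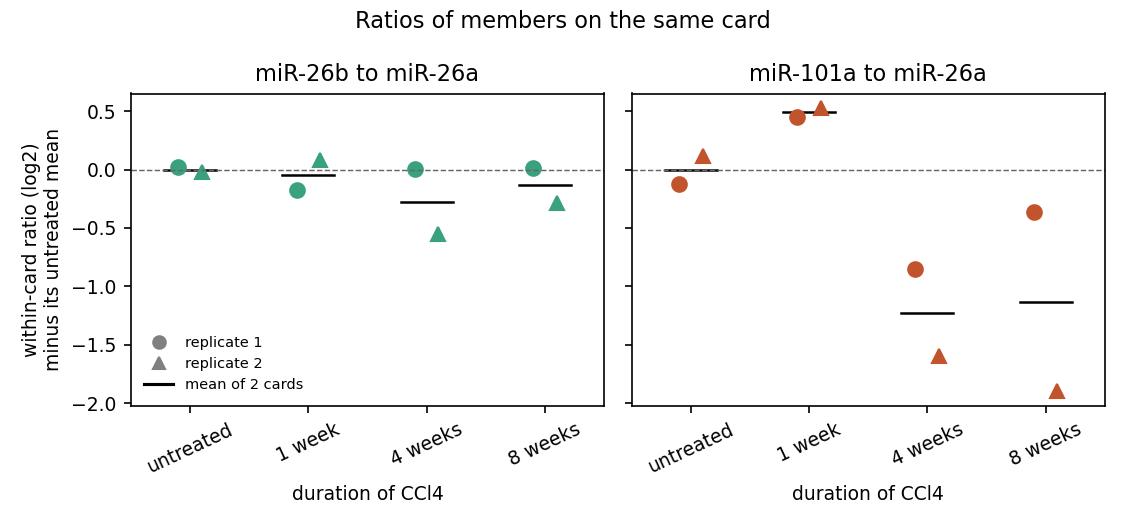
Within-card log2 ratios of miR-26b to miR-26a and of miR-101a to miR-26a on the 8 cards, each set to a mean of 0 in untreated liver. The first ratio spans 0.64 and the second 2.43.

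To describe which assays ran most like these, each of the 166 was set to a mean of 0 over the 8 cards, and the root mean square difference was taken card by card. Nearest to miR-26a were let-7f (0.134), miR-30d (0.210) and miR-27b (0.214), and miR-26b would have ranked 2 of 165 at 0.202. Nearest to miR-26b were let-7g (0.190), let-7f (0.195) and miR-152 (0.195), with miR-26a at rank 4. The median distance of all assays was 0.788 from miR-26a and 0.820 from miR-26b. let-7f changed by -1.06, -1.03 and -0.38 at the 3 times, close to the course of miR-26a.

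Nearest to miR-101a were miR-126-5p (0.311), miR-194 (0.332) and miR-192 (0.401), and the median distance was 1.17. miR-126-5p comes from an intron of the endothelial gene Egfl7, and miR-192 and miR-194 are abundant in hepatocytes. miR-26b stood at rank 25 and miR-26a at rank 42 from miR-101a. miR-126-5p changed by 0.12, -1.65 and -0.80, miR-194 by -0.79, -2.49 and -1.26, and miR-192 by -0.58, -2.76 and -1.18. All 3 were lowest at 4 weeks, as miR-101a was.

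Markers of liver cell types moved over the same times. The summed level of the 4 hepatocyte markers (miR-122, miR-192, miR-194 and miR-802) was 219.9 to 227 in untreated liver. After 1 week it was 128 to 133, after 4 weeks 76.0 to 85.5 and after 8 weeks 132 to 156, in units of the card mean. In limma 1, 3 and 1 of the 4 were called lower at the 3 times, where 14.5%, 16.9% and 0.602% of all assays were, and miR-122 itself was not among them (-1.20, -0.23 and 0.09). The sum of the 2 endothelial markers, miR-126-3p and miR-126-5p, was 241 to 341, then 426 to 444, 61.8 to 107 and 114 to 203, and both were called lower at 4 weeks, as were 16.9% of all assays. The hepatocyte and endothelial sums and miR-101a thus all had their lowest values at 4 weeks. The sums hold miR-192, miR-194 and miR-126-5p, picked above as nearest to miR-101a on the same cards, so this likeness was partly built in. Of the 4 hepatocyte markers miR-192 had the lowest mean Ct (22.6), whereas miR-122 was lowest at 1 week.

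The sum of the 5 leukocyte markers (miR-223, miR-142-3p, miR-142-5p, miR-150 and miR-155) was 12.2 to 15.8 in untreated liver. It lay between 47.7 and 57.7 after 1 week, between 65.6 and 79.1 after 4 weeks, and between 25.5 and 29.2 after 8 weeks. In limma 4 of the 5 were called higher at 1 week and 4 at 4 weeks, where 18.1% and 13.3% of all assays were. The sum, in which the bright miR-223 weighs most, was highest at the times at which miR-26a and miR-26b were lowest. The markers did not all follow it: miR-142-3p was at -0.20 at 1 week and called higher at 4 weeks (2.00), whereas miR-150 was called higher at 1 week (1.97) and was at 0.13 at 4 weeks.

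Of the 5 mesenchymal markers 4 were tested (miR-199a-3p, miR-214, miR-143 and miR-145), and miR-199a-5p was determined on 1 card. Their sum was 10.4 to 11.8, 10.98 to 11.7, 13.8 to 18.6 and 10.4 to 12.9, with 2 called higher at 4 weeks, as were 13.3% of all assays. The 2 erythroid markers, miR-451 and miR-486, summed to between 1.64 and 2.36 on every card. None of the tested markers was undetermined on any card. The part of these cell types in the changes of miR-26a, miR-26b and miR-101a was not tested.

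Other miRNAs described to target EZH2 did not move as 1 group. Of 13 such miRNAs, 11 were tested, while miR-124 and miR-217 were each determined on 1 card. The 13 include 8 named let-7 and miR-98 of the same family, so the counts and medians are largely those of that family. At 1 week limma called 3 lower and 0 higher, namely let-7a (-1.77), let-7f (-1.06) and miR-98 (-1.37), and the median of the 11 was -1.17 beside -0.09 for all assays, of which 14.5% were called lower and 18.1% higher. An unadjusted p below 0.05 was found for 9 of the 11, of which miR-138 alone was higher (1.80), and for 44% of all assays. At 4 weeks let-7f (-1.03) and let-7g (-1.49) were called lower and miR-214 (1.69), also a mesenchymal marker, higher, with a median of 0.31 beside 0.03, and the median was -0.54 when the cards were not centred. Over all assays 16.9% were called lower and 13.3% higher at that time. At 8 weeks 0 of the 11 were called, 2 had an unadjusted p below 0.05, as had 24.1% of all assays, and the median was 0.34 beside -0.04. From 1 to 4 weeks 7 were called higher and 1, miR-138 (-3.36), lower, where 21.7% of all assays were called higher and 25.3% lower. let-7a rose by 1.85 and let-7c by 3.30 in that interval, whereas let-7f, at 0.03, ran level with miR-26a. let-7 sequences are near-identical, and whether their assays read each other was not tested.

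Other miRNAs described as tumour-suppressive in liver also went both ways. Of 11 listed, 10 were tested, and miR-375 was determined on 6 cards. miR-34a, a target of the p53 tumour suppressor, was called higher at all 3 times (1.56, 1.44 and 1.66), and at 8 weeks 2.41% of all assays were called higher. The 8-week call was lost without either 8-week card (1.81 and 1.52, adjusted p = 0.0793 and 0.152), without either untreated card (1.70 and 1.62), without either 1-week card (adjusted p = 0.0518) and with only the groups compared (adjusted p = 0.0828). At 1 week the call was lost without untreated replicate 1 (1.604) or 1-week replicate 1 (1.29), and at 4 weeks without either untreated card (1.48 and 1.40), and all 3 calls were lost with cards centred on all their determined assays (1.201, 1.16 and 1.59) and with no normalization (1.05, 0.59 and 1.65). The 8-week call was also lost with a replicate block (adjusted p = 0.0541) and with quantile normalization (adjusted p = 0.0824). miR-199a-3p, also a mesenchymal marker, was higher at 4 weeks (1.10). The miR-29 family, which restrains collagen genes, gave the calls in the other direction. miR-29c was called lower at both early times (-1.20 and -1.99), miR-29b at 1 week alone (-2.498) and miR-29a at 4 weeks alone (-1.21). That is 2 of the 10 at each of these times, near the 14.5% and 16.9% of all assays called lower. The medians of the 10 were -0.59, -0.39 and -0.15, and the 4-week median had the other sign under quantile normalization (0.29) and under the control RNAs (0.25), as had the 8-week median with the control RNAs (0.31).

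How the cards were centred moved the values. Scaling to the mean of U6, snoRNA135 and snoRNA202 shifted the median of all assays to -0.33, 0.67 and 0.42 at the 3 times, and leaving the Ct values without any centring shifted it to -0.60, -0.82 and -0.05. Relative to those medians all 3 assays stayed lower at each time, since the same amount is added to every assay of a card. U6 itself changed by 2.38 at 1 week and -1.50 at 4 weeks in limma (adjusted p = 0.0080 and 0.0417), and snoRNA202 by -1.39 at 1 week (adjusted p = 0.0139), while snoRNA135 moved by -0.27, -0.03 and -0.06 and passed at none of the times.

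**Figure D4:**
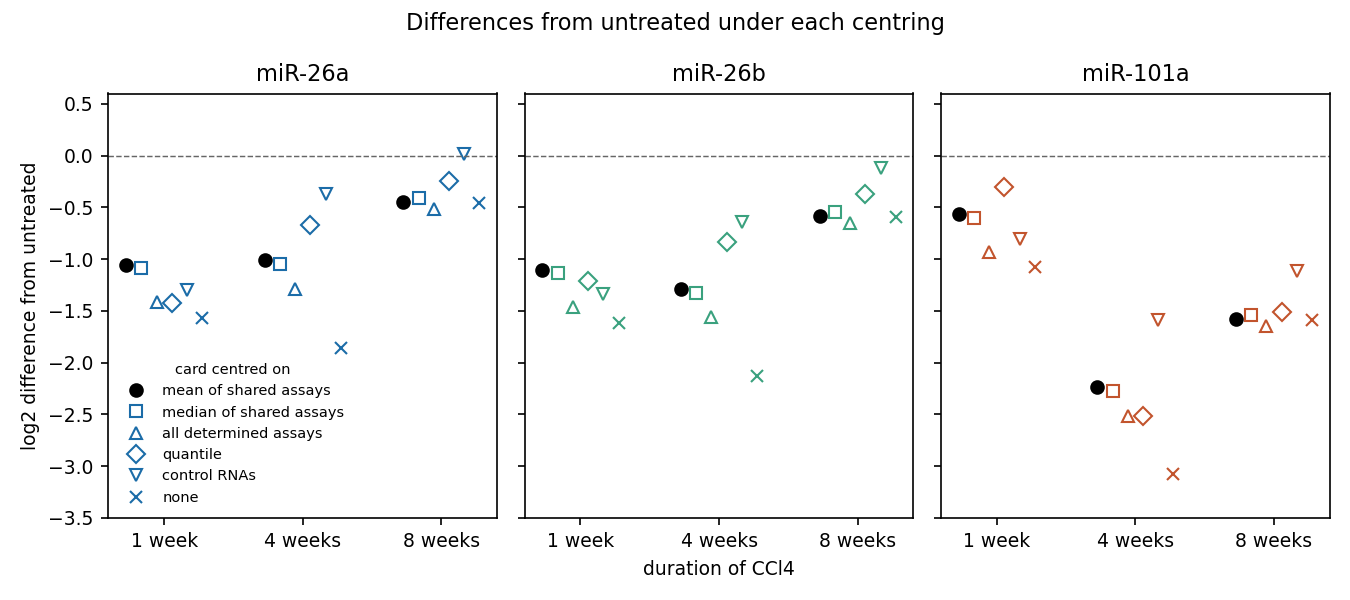
Log2 difference from untreated of miR-26a, miR-26b and miR-101a at 1, 4 and 8 weeks under each way of centring the cards. All differences lie below 0 except that of miR-26a at 8 weeks with the control RNAs, at 0.013.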

How the data were processed

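Total RNA of whole liver was read on rodent TaqMan microRNA cards (pool A). The authors deposited raw Ct values, another unit than counts, not normalized and not pooled. Their fold change table (DataAssist 0.50, maximum Ct 39.0, geometric mean normalization) holds their own comparisons and was not used. Values here were the card mean Ct over 149 assays below Ct 35 on all 8 cards, minus the assay Ct. limma 3.58.1 (R 4.3.3) was fitted jointly to the 8 cards over 166 assays, those with a Ct everywhere and a mean below 35 (prior df 3.47), with Benjamini-Hochberg adjustment within each comparison at 0.05; a result is called below that. The median replicate SD was 0.39. Exact permutation tests used scipy 1.17.1. The number of cards limits the precision. Assays named are the members, listed miRNAs, marker lists, the 3 nearest assays per member and the control RNAs. Members and lists were chosen with earlier results of these data known. Procedures were tested on simulated data. Alternatives were other centrings, other Ct limits, a replicate block, eBayes with a trend, only the groups compared, and each card left out. Replicate numbers did not pair the cards. The ratio to miR-101b was not run.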

Additional observations from a re-analysis of the deposited data

Results flagged for a closer look

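The change of miR-101a differed between 2 times on CCl4. It was -0.57 at 1 week and -2.23 at 4 weeks relative to untreated, and the difference, 4 weeks against 1 week, was -1.67 (limma, adjusted p = 0.0311). Both 4-week cards (-0.97 and -1.65) lay below both 1-week cards (0.38 and 0.35). The call was lost in 5 of the 8 fits that left out 1 card, with control RNAs (-0.79, adjusted p = 0.231), with all determined assays as centre (-1.58, adjusted p = 0.0591) and with no normalization (-2.0, adjusted p = 0.138). No other difference between times passed for miR-26a, miR-26b or miR-101a with all 8 cards in the fit and centred as above.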

How the results depend on the processing

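Of 240 results of the members and their ratios under other settings, 199 kept direction and call, and of 208 with 1 card left out 147 did; a group left with 1 card is assumed to vary like the others, and the causes of the changes were not tested. A result that was not called with all 8 cards centred as above and stayed uncalled counts as kept. Only results called there could lose a call, and this happened in 32 of the 240 and 57 of the 208. With cards centred on all their determined assays, miR-26a at 4 weeks (-1.29), over all CCl4 (-1.08) and by F (3.60), miR-26b over all CCl4 (-1.23) and by F (3.70), and miR-101a from 1 to 4 weeks (-1.58) lost the call. With control RNAs, calls were lost for miR-26a (-0.37 at 4 weeks, -0.55 over all CCl4), miR-26b (-0.64, -0.70 and F = 4.56) and miR-101a (-1.17 over all CCl4, F = 3.16, and -0.79 from 1 to 4 weeks), miR-26a at 8 weeks (0.013) and miR-26b from 1 to 4 weeks (0.70) changed sign, and miR-26a from 1 to 4 (0.93) and 8 weeks (1.31) and miR-26b from 1 to 8 weeks (1.22) gained it. With no normalization, calls were lost at 1 week (-1.57 for miR-26a, -1.62 for miR-26b), at 4 weeks (-1.86, -2.13), over all CCl4 (-1.30, -1.45 and -1.92 for miR-101a), by F (1.81, 2.16, 3.80) and for miR-101a from 1 to 4 weeks (-2.0), where miR-26a was -0.29. With quantile normalization miR-26b at 4 weeks (-0.84) and by F (7.44) and miR-101a over all CCl4 (-1.44) and by F (6.81) lost the call, miR-26a from 1 to 4 (0.75) and 8 weeks (1.18) gained it, and miR-26b from 1 to 4 weeks was 0.37. With only the groups compared, miR-26a (-1.01, adjusted p = 0.0740) and miR-26b (-1.28, 0.0505) at 4 weeks lost it. In the fit with a replicate block, the F test of miR-26a (F = 6.27, adjusted p = 0.0506) lost it and no other call of a member changed; replicate deviations correlated between groups from -0.50 to 0.43.

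Leaving out 1 card gave ranges for miR-26a of -1.11 to -1.004 at 1 week, -1.05 to -0.97 at 4 weeks, -0.0061 to 0.10 from 1 to 4 weeks, -0.86 to -0.82 over all CCl4 and F of 4.54 to 6.19. For miR-26b they were -1.18 to -1.03, -1.53 to -1.04, -0.43 to 0.063, -1.07 to -0.91 and 4.23 to 8.18. For miR-101a they were -2.57 to -1.90 at 4 weeks, -2.01 to -1.33 from 1 to 4 weeks, -1.78 to -0.24 from 1 to 8 weeks, -0.12 to 1.43 from 4 to 8 weeks, -1.72 to -1.20 over all CCl4 and F of 4.86 to 20.4, and for its ratio to miR-26a F ran from 3.48 to 14.1.

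The number of assays called fell without normalization from 54 to 5 at 1 week, 50 to 10 at 4 weeks, 5 to 1 at 8 weeks, 78 to 29 from 1 to 4 weeks, 40 to 8 from 1 to 8 weeks, 48 to 2 over all CCl4 and 90 to 23 by F. It was 1 at 8 weeks and 24 over all CCl4 with all determined assays as centre, 20 from 1 to 8 weeks, 9 from 4 to 8 weeks (2 above) and 56 by F with quantile normalization, and at 8 weeks 12 with control RNAs, 11 with a trend, 3 below Ct 32 and 0 with only the groups compared (32 unadjusted). From 4 to 8 weeks it was 0 with a block (25 unadjusted), only the groups compared (18) or no normalization (18), and 1 with the card median, control RNAs or all determined assays. Leaving out 1 card took it to as few as 15 at 1 week (without untreated replicate 1), 22 at 4 weeks and 7 over all CCl4 (without untreated replicate 2), 0 at 8 weeks (either 8-week card, 45 and 26 unadjusted), 30 from 1 to 4 weeks (4-week replicate 2), 4 from 1 to 8 weeks (1-week or 8-week replicate 2) and 35 by F (1-week replicate 2), and the shares of all assays given above move with it. Of the 11 other EZH2-targeting miRNAs, 7 were called at 1 week with all determined assays as centre and 5 with the card median (3 above), and their median was 0.95 at 4 weeks and 0.80 at 8 weeks with control RNAs.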
